A study of Caenorhabditis elegans with 32 samples.

Results

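The genes str-245 (WBGene00006272) and eva-1 (WBGene00009304) were examined as targets of small RNAs in the Caenorhabditis elegans gonad. They were 2 of 46779 counted features, and both had a row in all 32 libraries. They were chosen by their measured levels: small RNAs at both were lost in the wild-type F2 of crosses with a germ granule mutant, and wild type of one RNA extraction differed from wild type of the other. Levels of these groups are therefore given as a description with no test. The gene str-245 (chromosome I, 14852818 to 14854711, plus strand, WBcel235) is protein coding, with 1151 exonic bases in 6 exons. The gene eva-1 (chromosome I, 14829732 to 14834841, minus strand) is protein coding, with 3107 exonic bases in 10 exons. A stretch of 18.0 kb separates them. The whole of str-245 lies inside aex-5, which runs on the opposite strand. Of its exonic bases, 1061 fall in aex-5 introns and 90 in aex-5 exons. Inside eva-1 the annotation places the non-coding gene F32A7.9 on the opposite strand, which had 0 counts in every library.

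RNA came from dissected gonads of young adults grown at 20 °C. All groups carried Pmex-5::gfp::h2b::tbb-2, a transgene for a green fluorescent protein fused to histone H2B that is made in the germline. RNA from a column kit (miRNeasy) gave 21 libraries in 7 groups of 3. These were wild type (strain SX1263); meg-3(tm4259);meg-4(ax2026) double mutants kept for more than 80 generations (strain BFF40, called long-term mutants); and F2 worms, wild-type or double mutant, from crosses between these strains in both directions. In the paternal cross the male was the mutant, and in the maternal cross the hermaphrodite was. The seventh group held double mutants in the F15 of the paternal cross. RNA from a phenol reagent (TRIZOL) gave 11 libraries in 4 groups. These were wild type (SX1263), pptr-1(tm3103) mutants (strain BFF39), and 2 F6 groups, wild-type and pptr-1, that descend from worms treated with double-stranded RNA against gfp. The F6 pptr-1 group held 2 libraries and the others 3. Each mutant genotype is 1 strain with its own history, so strain and mutation cannot be told apart. Extraction and experiment coincided throughout.

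In the worm germline, RNA-dependent RNA polymerases make short RNAs antisense to transcripts that Argonaute proteins have marked, and these short RNAs can be passed to progeny. P granules, RNA-rich germ granules at the nuclear surface, hold many proteins of this pathway. MEG-3 and MEG-4 are disordered proteins needed to assemble P granules in embryos, and the same granules depend on PPTR-1, a regulatory subunit of a phosphatase. The protein STR-245 belongs to the str family of chemoreceptors, membrane receptors known mainly from sensory neurons. EVA-1 is a transmembrane receptor that acts with the Robo receptor SAX-3 in the response to the guidance cue SLT-1, and with UNC-40 in the response to MADD-4. The values below are counts of small RNAs assigned to the genes, not transcript levels.

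The libraries held 2684285 to 14871375 feature counts, apart from the third long-term library with 126214. Levels are CPM, the count per 1000000 feature counts of a library. A level of 3 counts, taken here as the detection floor, came to 0.202 to 1.12 CPM, and to 23.8 CPM in the shallow library. Chi-square per degree of freedom was 1.70 to 127 over the 31 pairs of libraries of a group, above sampling noise in each pair. Nothing in the labels says that replicates came from separate cultures, so p-values may measure technical spread. Germline genes fixed as markers (pgl-1, glh-1, mex-5, oma-1, rme-2, glp-1) summed to 765 to 1403 CPM per library, with 6 of 6 measured. Somatic genes (unc-54, myo-3, vit-2, vit-6, rab-3, col-19) summed to 5.54 to 58.2 CPM, with 4 of 6 measured. Since these are small RNAs on the genes, they do not measure the cells present.

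Small RNAs at eva-1 were at 41.4, 42.4 and 45.5 CPM in the 3 column-kit wild-type libraries, from 185, 253 and 677 counts. At str-245 the same libraries had 33.6, 57.1 and 86.5 CPM, from 150, 341 and 1286 counts. The highest of the 3 was 1.10 times the lowest at eva-1 and 2.58 times the lowest at str-245. These libraries thus carried nearly equal eva-1 levels and unequal str-245 levels. The means were 43.1 ± 2.17 CPM for eva-1 and 59.0 ± 26.5 for str-245 (SD, n = 3). Per kilobase of exon these mean levels were 13.9 CPM for eva-1 and 51.3 for str-245.

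All other libraries had lower levels, by a wide margin at eva-1 and a narrower one at str-245. Across the other 29 libraries, the highest str-245 level was 18.4 CPM, in a wild-type F2 library of the maternal cross. The lowest column-kit wild-type library was 1.83 times that value, a smaller ratio than the 2.58 within wild type. For eva-1 the highest of the other 29 libraries had 6.14 CPM, in the phenol wild-type F6, and the lowest column-kit wild-type library was 6.74 times that. Of 7674 features with at least 5 CPM in column-kit wild type, 47 (0.612%) had every wild-type library of the kit above all other 29 libraries. Ranked by the lowest wild-type library over the highest other library, eva-1 came 1 and str-245 came 5 among the 47, with aex-5 at rank 2 (2.32). Without the shallow library the 47 became 53 and both ranks were unchanged. On chromosome I lay 17 of the 47 (36.2%), against 21.5% of the 7674. The 17 include eva-1, str-245 and aex-5, which holds str-245 within it. Because this pattern chose the genes, the ranks and the chromosome I share are descriptions and no test. The plot of each level in all libraries and the histogram of separation show both genes.

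**Figure D1:**
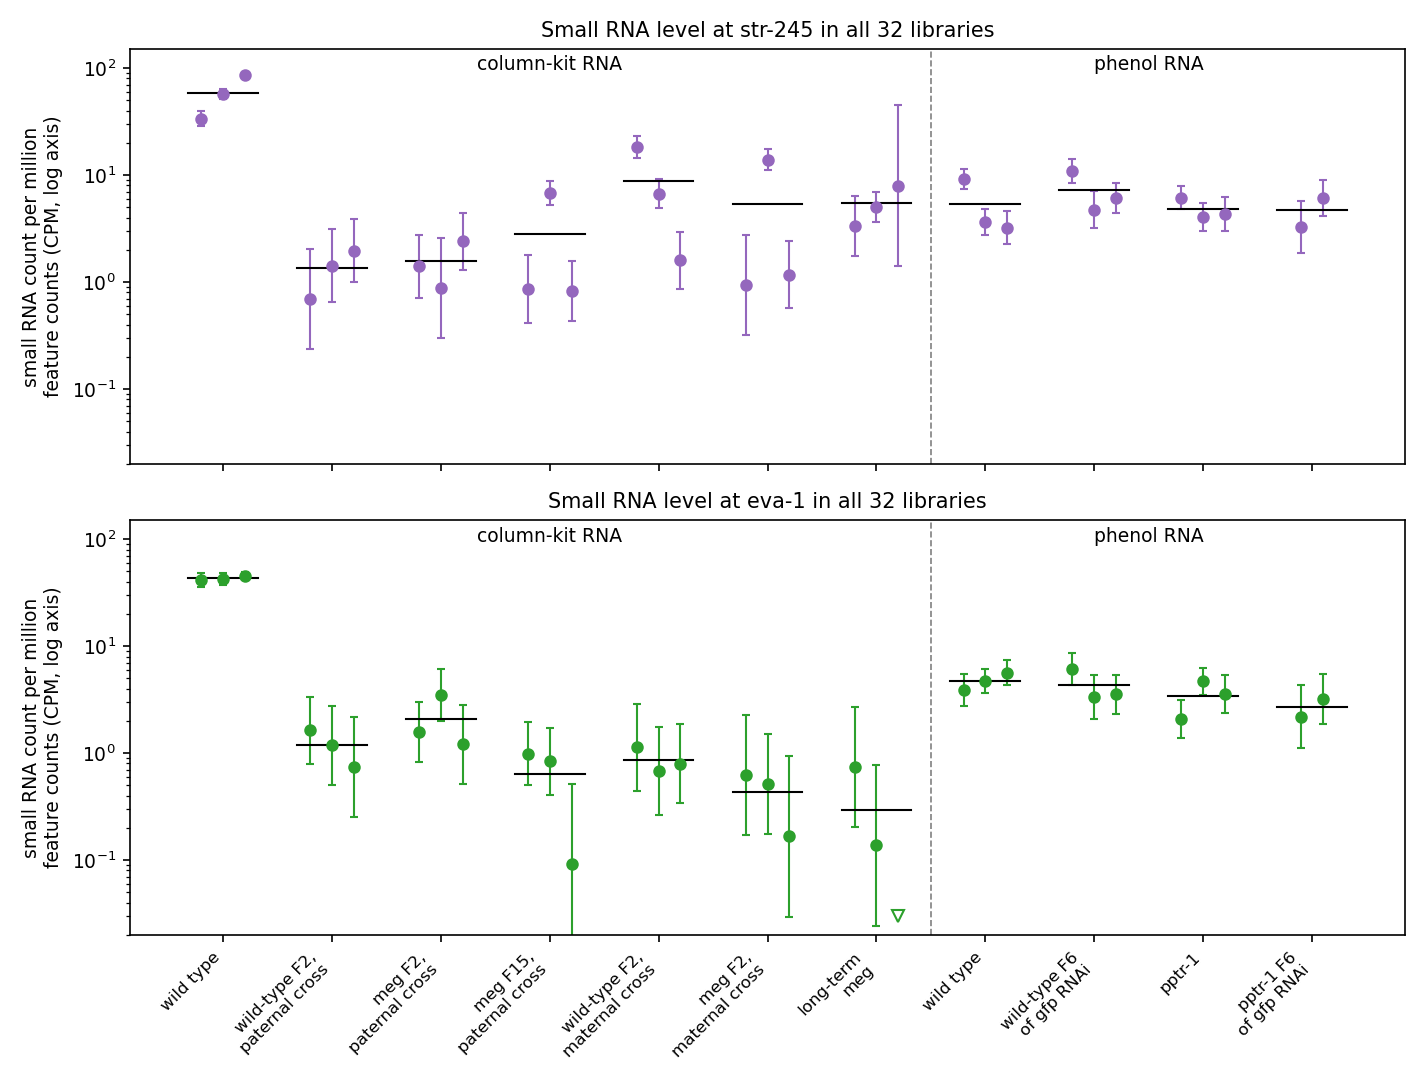
Small RNA level (CPM, log axis) at str-245 and eva-1 in each of the 32 libraries, by group, with column-kit groups left of the dashed line and phenol groups right of it. Points are libraries with their 95% Wilson intervals (counting error only), black lines are group means, and the open triangle is a library with 0 counts. The 3 column-kit wild-type libraries lie above all 29 others for both genes.

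**Figure D2:**
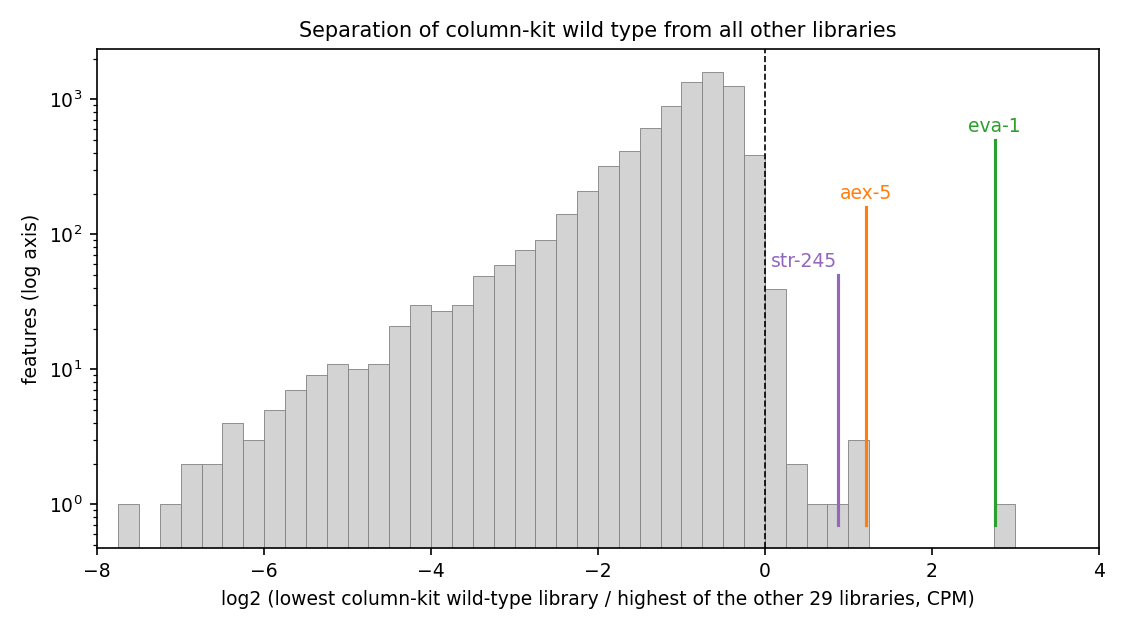
Histogram (log axis) of the 7674 features with at least 5 CPM in column-kit wild type, by the log2 ratio of the lowest column-kit wild-type library to the highest of the other 29 libraries. Features right of the dashed line at 0 had no overlap, and 9 features with a log2 ratio under -8 are not drawn. Coloured lines mark eva-1, aex-5 and str-245, which held ranks 1, 2 and 5.

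Phenol wild type, of the same strain, had 3.88, 4.74 and 5.63 CPM at eva-1 and 9.17, 3.63 and 3.23 CPM at str-245. Its means were 4.75 ± 0.875 and 5.35 ± 3.32 CPM (SD, n = 3). Column-kit wild type thus lay 9.07 times higher at eva-1 and 11.0 times higher at str-245. Only 9 of the 7674 features (0.117%) were at least 5 times higher in column-kit than in phenol wild type without overlap. The others of the 9 were fard-1 at 277 times, aex-5 at 17.8 times, F12D9.2 at 12.7 times, and linc-109, T05G5.4, F54C8.10 and B0261.8 at 5.27 to 7.98 times. The extractions also differ in experiment, and the parts of either in this difference cannot be told apart.

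In the wild-type F2, which carry the wild-type genotype, small RNAs at both genes were far below column-kit wild type. In the paternal cross eva-1 had 1.63, 1.19 and 0.736 CPM, and str-245 had 0.698, 1.43 and 1.96 CPM. The fitted log2 fold changes against wild type were -5.0 (SE 0.51) at eva-1 and -5.27 (SE 1.04) at str-245. In the maternal cross eva-1 had 1.13, 0.685 and 0.798 CPM, a log2 fold change of -5.32 (SE 0.52). For str-245 the maternal-cross libraries spread from 1.60 over 6.68 to 18.4 CPM, and the log2 fold change was -2.52 (SE 0.85), or -3.45 without the library at 18.4 CPM. The eva-1 libraries of both crosses overlapped, and so did the str-245 libraries. Between the crosses, maternal over paternal, the log2 fold change was -0.32 (SE 0.60) at eva-1 and 2.74 (SE 1.04) at str-245, where it was 1.82 without the library at 18.4 CPM. Wild-type libraries were higher without overlap at 25.3% of the 10230 tested features in the paternal and at 35.2% in the maternal cross. The summed level of the 6 somatic markers differed between groups. It was 32.2 to 36.7 CPM in column-kit wild type, 14.0 to 17.0 in the paternal and 11.8 to 25.0 in the maternal wild-type F2. Phenol wild type had 17.4 to 24.2 CPM, wild-type F6 15.6 to 30.6, pptr-1 mutants 38.8 to 47.5 and pptr-1 F6 36.3 to 58.2. The pptr-1 groups belong to the phenol extraction, so their sums and that of column-kit wild type differ in extraction and experiment too. Between the wild types rab-3 was lower with the column kit (5.33 ± 2.27 and 8.66 ± 0.161 CPM), unlike unc-54, vit-2 and vit-6. The median log2 fold change of the 4 measured somatic markers against wild type was -1.17 in the paternal and -0.66 in the maternal wild-type F2, against 0.03 and 0.04 over all features. The marker unc-54 is a neighbour of str-245, and myo-3 and col-19 were near 0 (means of 0.149 and 0.0224 CPM in column-kit wild type). A part of the somatic sum in the levels of eva-1 and str-245 was not tested.

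Double mutants had low levels at both genes too. In long-term mutants eva-1 had 2, 1 and 0 counts, which is at or below the floor in each library. Summed over libraries and divided by total feature counts, without the scaling of the fits, these 3 counts put wild type 148-fold higher. The exact 95% interval for counting error was 50.6 to 721. The str-245 level in long-term mutants was 3.35, 5.07 and 7.92 CPM. The last value is 1 count in the shallow library, and the mean was 4.21 CPM without it and 5.45 ± 2.31 with it (SD, n = 3). In F15 mutants eva-1 had 0.639 ± 0.479 CPM and str-245 had 2.84 ± 3.47 CPM (SD, n = 3). One F15 library had 6.85 CPM at str-245, and the other two had 0.861 and 0.823 CPM. Against wild type, the fitted log2 fold change at eva-1 was -6.55 (SE 0.70) for the long-term and -5.99 (SE 0.52) for the F15 group. At str-245 the corresponding values were -3.25 (SE 1.02) and -4.28 (SE 0.92), the latter -5.86 without the F15 library at 6.85 CPM. The long-term value of eva-1 rests on 3 counts and was -7.72 without the first and -5.53 without the second long-term library. The summed somatic markers were at 14.9 to 43.2 CPM in long-term and 12.3 to 18.5 in F15 mutants. Wild type was higher without overlap at 38.9% of tested features against long-term and at 17.8% against F15 mutants.

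Levels in the mutant F2 overlapped those in wild-type F2 of that cross, except at eva-1 in the maternal cross. In the paternal cross eva-1 had 1.58, 3.5 and 1.21 CPM and str-245 had 1.41, 0.875 and 2.41 CPM. The log2 fold change of mutant over wild-type F2 there was 0.79 (SE 0.55) at eva-1, or 0.26 without the library at 3.5 CPM, and 0.23 (SE 1.20) at str-245. At str-245 that value turned to -0.08 without the wild-type F2 library at 0.698 CPM and to -0.13 without the mutant library at 2.41 CPM. In the maternal cross eva-1 had 2, 3 and 1 counts (0.622, 0.517 and 0.167 CPM), all at or below the floor and all below the 3 wild-type F2 libraries. Summed and divided by total feature counts, again without the scaling of the fits, these 6 counts put column-kit wild type 110-fold higher (exact 95% interval for counting error 50.4 to 301). The log2 fold change of mutant over wild-type F2 was -0.89 (SE 0.70) at eva-1, or -0.45 without the library at 0.167 CPM, and such lower values without overlap were found at 11% of tested features. For str-245 in the maternal cross the mutant F2 had 0.932, 14.0 and 1.17 CPM, which overlaps the wild-type F2 range. The mutant over wild-type F2 log2 fold change at str-245 was -0.35 (SE 0.87), and -2.84 without the mutant library at 14.0 CPM. It turned to 0.58 without the wild-type F2 library at 18.4 CPM, and to 0.12 or 0.15 without either of the other mutant libraries. Against column-kit wild type, the mutant F2 had log2 fold changes of -4.21 (SE 0.48, paternal) and -6.20 (SE 0.57, maternal) at eva-1. At str-245 these were -5.03 (SE 1.02) and -2.87 (SE 0.87), the last becoming -5.40 without the library at 14.0 CPM. Wild type was higher without overlap at 24.2% (paternal) and 40.4% (maternal) of tested features. All 6 comparisons with wild type share the same 3 wild-type libraries.

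The range of levels over libraries differed between the genes. Over the 18 column-kit libraries other than wild type, str-245 ran from 0.698 to 18.4 CPM with a median of 1.78, and 6 of the 18 had more than 5 CPM. Those 6 fell in 4 groups and no group had all of its libraries among them. The shallow library was among the 6 with 1 count, below its floor of 23.8 CPM. Over the same 18 libraries eva-1 ran from 0 to 3.5 CPM with a median of 0.772, and 8 were at or under 3 counts. At eva-1 1 of the 18 libraries reached 10 counts, so the gene met the count minimum through wild type. At str-245 7 of the 18 reached 10 counts, and 4 were at or under 3. The ratio of the str-245 to the eva-1 level in a library was 0.811 to 1.90 in wild type and 0.25 to 37.0 in the 17 other column-kit libraries with an eva-1 count. The value of 37.0 came from 37 counts at str-245 and 1 at eva-1, in the second long-term library. In the 11 phenol libraries the ratio of the str-245 to the eva-1 level was 0.574 to 2.95.

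The phenol groups differed little among themselves. The untreated pptr-1 mutants had 2.08, 4.67 and 3.57 CPM at eva-1 and 6.15, 4.09 and 4.34 CPM at str-245, overlapping phenol wild type at both genes. Their log2 fold changes over wild type were -0.40 (SE 0.36) at eva-1 and -0.04 (SE 0.48) at str-245, the latter 0.63 without the wild-type library at 9.17 CPM. The wild-type F6 had 6.14, 3.37 and 3.55 CPM at eva-1 and 11.0, 4.75 and 6.09 CPM at str-245, with log2 fold changes over untreated wild type of -0.05 (SE 0.37) and 0.50 (SE 0.48). The str-245 value was 1.17 without the wild-type library at 9.17 CPM and 0.09 without the F6 library at 11.0 CPM, and the eva-1 value ran from -0.37 to 0.09 with single libraries left out. The pptr-1 F6 had 2.19 and 3.18 CPM at eva-1 and 3.28 and 6.12 CPM at str-245. Over all 11 phenol libraries the median level was 3.57 CPM at eva-1 and 4.75 at str-245.

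Ordered by mean level, column-kit wild type came first for both genes and did not overlap the next group. Every further pair of neighbours in the order overlapped. For eva-1 the order of mean levels after it was phenol wild type, wild-type F6, pptr-1 mutants, pptr-1 F6, mutant F2 (paternal), wild-type F2 (paternal), wild-type F2 (maternal), F15 mutants, mutant F2 (maternal) and long-term mutants. For str-245 the order was wild-type F2 (maternal), wild-type F6, long-term mutants, mutant F2 (maternal), phenol wild type, pptr-1 mutants, pptr-1 F6, F15 mutants, mutant F2 (paternal) and wild-type F2 (paternal). The 4 phenol groups thus took the places after wild type at eva-1, while at str-245 they lay among the column-kit groups.

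Only comparisons of groups that had no part in choosing the genes were tested, 6 for each gene. The spread used in these tests was, however, estimated over all groups of an extraction, with the groups that chose the genes among them. Of these 12 tests 0 passed an adjusted p of 0.05 by edgeR's quasi-likelihood test with Benjamini-Hochberg adjustment over all features, and DESeq2 also called 0. In 3 of the 12 the unadjusted edgeR p was under 0.05. The share of all features under that unadjusted level is not given here, so the 3 are no result about the genes. The background of called features was 5.22% in F15 against long-term mutants, 5.07% in the maternal against the paternal mutant F2, 0.909% in the F15 against the F2 mutants of the paternal cross, and 0.205% in the maternal mutant F2 against long-term mutants. It was 7.73% in pptr-1 against wild-type F6 and 0.0644% in pptr-1 F6 against untreated pptr-1 mutants.

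The lowest adjusted p was found at eva-1 between the crosses. In the column-kit libraries eva-1 met the count minimum through wild type, a group outside these comparisons, so its tests among mutants rest on 12 counts or fewer in each library. The mutant F2 of the maternal cross were lower than those of the paternal cross without overlap (0.435 ± 0.238 and 2.10 ± 1.23 CPM), with a log2 fold change of -1.99 (SE 0.64, edgeR adjusted p 0.0826). In a fit of only these 2 groups the SE was 0.78 and the edgeR adjusted p 0.243. Lower values without overlap occurred at 23.1% of tested features in that comparison. In the same comparison str-245 had a log2 fold change of 2.16 (SE 1.02, edgeR adjusted p 0.262), with overlap, and 1 maternal-cross library at 14.0 CPM against 0.932 and 1.17 in the others. Without that library the value turned to -0.30. So the fitted differences of the genes had opposite signs, and neither passed the threshold.

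F15 mutants had lower eva-1 levels than the mutant F2 of the same paternal cross, again without overlap (log2 fold change -1.77, SE 0.54, edgeR adjusted p 0.172), from 8, 7 and 1 counts against 9, 12 and 5. In a fit of only these 2 groups the SE was 0.79 and the edgeR adjusted p 0.627. Lower values without overlap occurred at 6.34% of tested features. At str-245 the value was 0.76 (SE 1.03, edgeR adjusted p 0.901), and -0.83 without the F15 library at 6.85 CPM. Between F15 and long-term mutants the log2 fold change was 0.56 at eva-1 (SE 0.84, edgeR adjusted p 0.790) and -1.02 at str-245 (SE 1.01, edgeR adjusted p 0.635), and -2.61 at str-245 without the F15 library at 6.85 CPM. The eva-1 value between F15 and long-term mutants turned to -0.48 without the second long-term library. Between the maternal mutant F2 and long-term mutants the values were 0.34 at eva-1 (SE 0.93, edgeR adjusted p 0.985) and 0.38 at str-245 (SE 1.01, edgeR adjusted p 0.983). With 0 to 3 counts in each of these libraries, a difference in eva-1 between the maternal mutant F2 and long-term mutants was not detectable at this depth. At str-245 this value turned to -2.10 without the maternal-cross library at 14.0 CPM.

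In the phenol experiment pptr-1 F6 had lower eva-1 levels than wild-type F6 without overlap (2.68 ± 0.703, n = 2, and 4.35 ± 1.55 CPM, n = 3). The log2 fold change was -0.83 (SE 0.46, edgeR adjusted p 0.321), and lower values without overlap occurred at 13% of tested features. At str-245 it was -0.77 (SE 0.58, edgeR adjusted p 0.492), with overlapping libraries. Against untreated pptr-1 mutants, the F6 had log2 fold changes of -0.48 at eva-1 (SE 0.45, edgeR adjusted p 0.809) and -0.22 at str-245 (SE 0.57, edgeR adjusted p 0.946). The plot of fitted differences sets all of these beside the described ones.

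**Figure D3:**
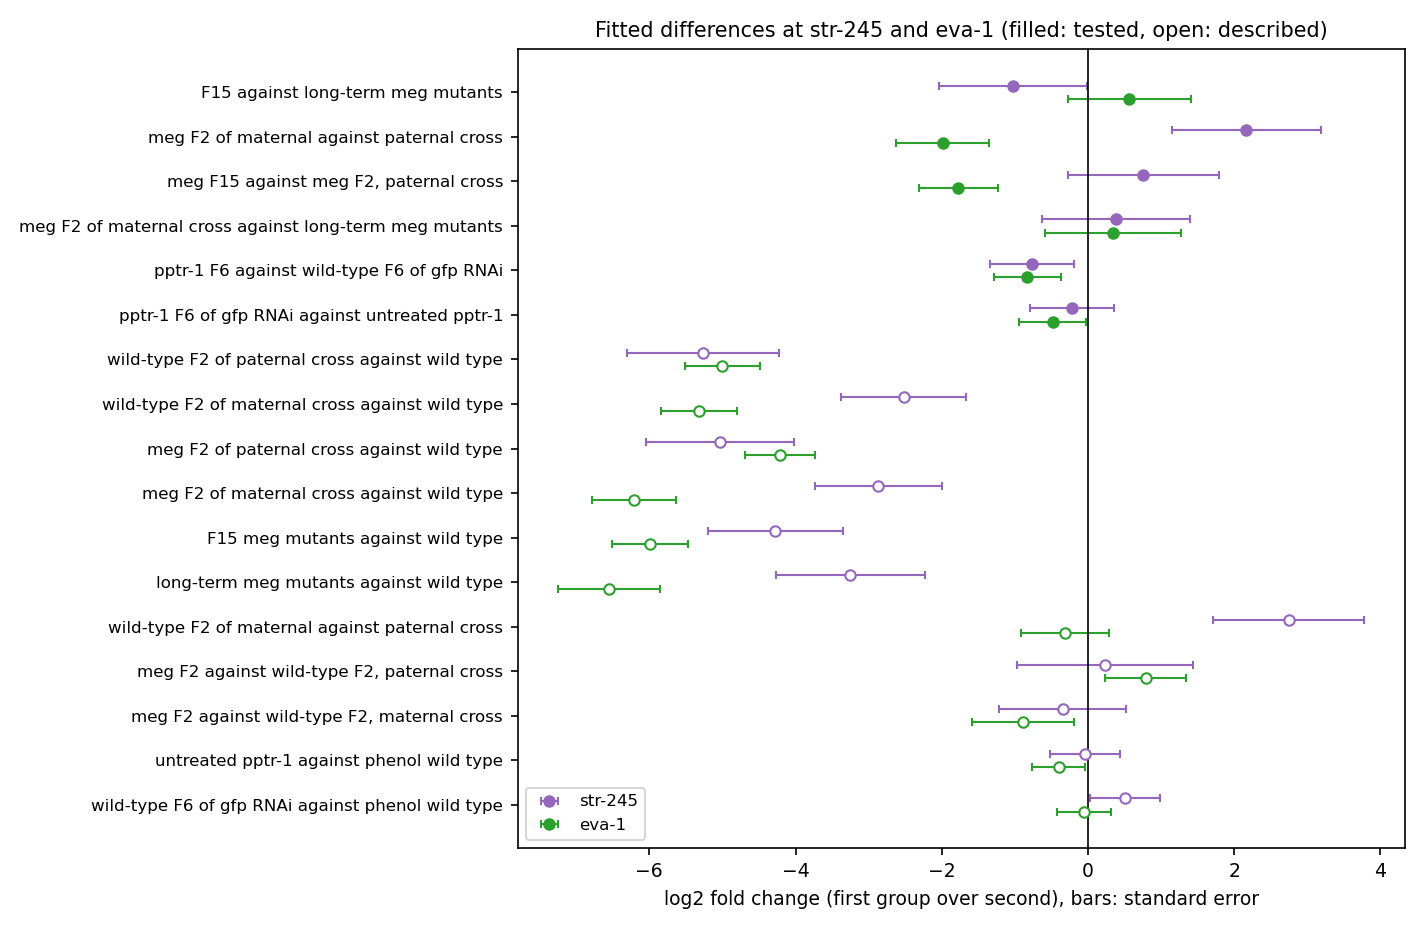
Fitted log2 fold changes (first group over second, bars are standard errors) at str-245 (purple) and eva-1 (green). Filled points are the 6 comparisons that were tested, none of which passed for either gene, and open points are comparisons with a group that chose the genes. The 6 comparisons with column-kit wild type lie between -6.55 and -2.52.

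The neighbourhood was described to see how far the pattern extended along the chromosome. A window of 75.0 kb, reaching 25 kb beyond the genes, held 20 counted features. A mean of at least 5 CPM in some group was reached by 11 neighbours of the pair, while the 7 features below that had group means of at most 3.06 CPM. The neighbour closest in pattern was aex-5 (WBGene00000088, chromosome I, 14850052 to 14855827, minus strand), which encodes a proprotein convertase needed for the defecation rhythm. Its levels in column-kit wild type were 25.1, 23.4 and 51.0 CPM. In phenol wild type aex-5 had 1.87 ± 1.64 CPM (SD, n = 3), and in the other 18 column-kit libraries a median of 1.24 CPM with a maximum of 10.1. Like str-245, aex-5 was highest in the third wild-type library. Whether the counting used the strand, and how a read lying in both genes was treated, are not given in the sources used here, so the levels of str-245 and aex-5 may include shared reads. Reads tallied as lying in several features were 0.422% to 0.586% of a library.

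On the other side of aex-5, unc-54, the muscle myosin heavy chain gene and one of the somatic markers, had 9.77 ± 1.42 CPM in column-kit wild type (SD, n = 3) and 3.92 ± 1.49 in phenol wild type. The wild-type libraries of the kit lay above all phenol libraries at unc-54 and overlapped the other column-kit libraries, whose levels ran from 0 to 8.74 CPM. The gene maph-1.1, which encodes a microtubule-associated protein homolog and lies on the eva-1 side of aex-5, had 71.1 ± 10.3 CPM in column-kit and 22.0 ± 5.12 in phenol wild type. Its end (14850142, plus strand) overlaps aex-5, which begins at 14850052 on the minus strand. The levels of maph-1.1 and aex-5 may therefore include shared reads as well. Other column-kit libraries had a median of 30.6 CPM at maph-1.1, and the shallow library, at 198 CPM, was above wild type. Between maph-1.1 and eva-1 lies metl-17, a methyltransferase-like gene, with 39.4 ± 1.43 CPM in column-kit and 39.2 ± 1.30 in phenol wild type. The level of metl-17 thus differed by less than the spread between replicates, and its other column-kit libraries (14.9 to 47.5 CPM) overlapped wild type. Column-kit wild type thus lay above phenol wild type without overlap at eva-1 and maph-1.1, and overlapped it at metl-17 between them. The share of all features that lay higher without overlap is not given here, so this is no result about the region.

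At the remaining 7 neighbours the ratio of column-kit to phenol wild-type means was 0.696 to 1.37. The highest ratio was at let-49, with 28.0 to 37.1 CPM in column-kit and 22.2 to 27.1 in phenol wild type, also without overlap. The semaphorin gene smp-1 had 89.1 ± 12.9 CPM in column-kit and 106 ± 4.33 in phenol wild type, and F11C3.1 had 123 ± 6.55 and 177 ± 36.8. Column-kit wild type lay above all other column-kit libraries at F11C3.1 (23.8 to 102 CPM), which held for 588 of the 7674 features (7.66%). The most heavily targeted gene of the window, frm-1, which encodes a FERM domain protein, had 1082 ± 65.7 and 1329 ± 107 CPM. In the 66 tests of the 11 neighbours in the 6 comparisons, 3 passed by edgeR (5 by DESeq2). No DESeq2 share over all features is set beside the 5, so they are no result about the neighbours. Over all features edgeR called 5.22%, 5.07% and 7.73% in the comparisons of these 3 calls, in the order given next. In the other comparisons it called 0.0644% to 0.909%. At smp-1 the F15 mutants were higher than long-term mutants (log2 fold change 2.01, SE 0.40, edgeR adjusted p 0.00644), and the maternal mutant F2 were lower than the paternal ones (-1.74, SE 0.35, edgeR adjusted p 0.00636). At frm-1 the pptr-1 F6 were lower than the wild-type F6 (-0.82, SE 0.18, edgeR adjusted p 0.0163). No test at aex-5, maph-1.1, metl-17 or unc-54 passed.

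**Figure D4:**
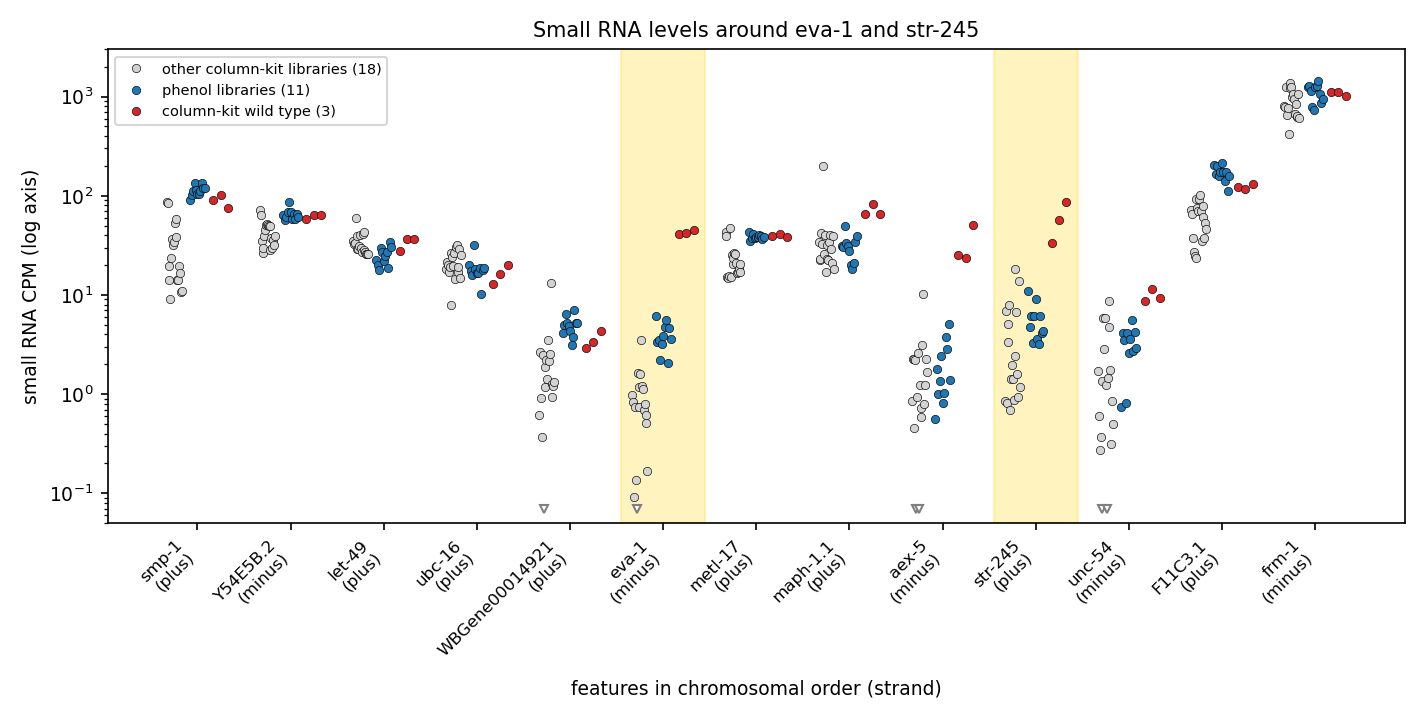
Small RNA level (CPM, log axis) in each library at eva-1, str-245 (shaded) and their 11 neighbours with at least 5 CPM in a group, in chromosomal order with strand. Red points are the 3 column-kit wild-type libraries, blue the 11 phenol libraries, grey the other 18 column-kit libraries, and open triangles are 0 counts. Red points stand clear of all others at eva-1, aex-5 and str-245, and not at metl-17.

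Features with a like pattern over the 21 column-kit libraries were ranked by Pearson's r of log2 CPM, out of 10229 compared. These libraries share the wild-type group and the crosses, so r is a description. The gene most like str-245 was aex-5 (r = 0.760, and 0.42 without the 3 wild-type libraries). It was followed by fbxc-39, an F-box gene on chromosome II (0.731, and 0.42 without wild type). Then came egl-30 on chromosome I (0.723 and 0.29), which encodes a G protein alpha subunit. The gene eva-1 had rank 26 for str-245, with r = 0.617 over all 21 libraries and -0.27 over the 18 others.

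For eva-1 the like features were R02D5.1 on chromosome V (r = 0.940, and 0.702 without wild type), plr-1 on chromosome III (0.913 and 0.622), which encodes a RING finger protein that acts on Wnt receptors, and clc-7 on chromosome X (0.909 and 0.661), a claudin-like gene. In column-kit wild type R02D5.1 had 259 ± 8.81 CPM, against 5.39 to 47.5 CPM in the other column-kit libraries. In phenol wild type, however, R02D5.1 had 264 ± 118 CPM, plr-1 had 268 ± 126 and clc-7 had 73.5 ± 25.4 CPM (SD, n = 3). The column-kit means of the latter pair were 247 ± 48.8 and 73.0 ± 12.1 CPM. These 3 genes thus shared the decline of eva-1 within the column-kit experiment and not its low phenol level. Phenol levels near the column-kit wild type were also found at fbxc-39 (245.1 ± 14.3 CPM in column-kit and 278 ± 54.9 in phenol wild type) and egl-30 (197 ± 15.5 and 178 ± 11.8). Their decline within the column-kit experiment was much smaller than that of str-245. Medians of the other 18 column-kit libraries were 104 CPM at fbxc-39, 106 at egl-30 and 1.78 at str-245. Among the like features aex-5 alone was low in phenol wild type.

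**Figure D5:**
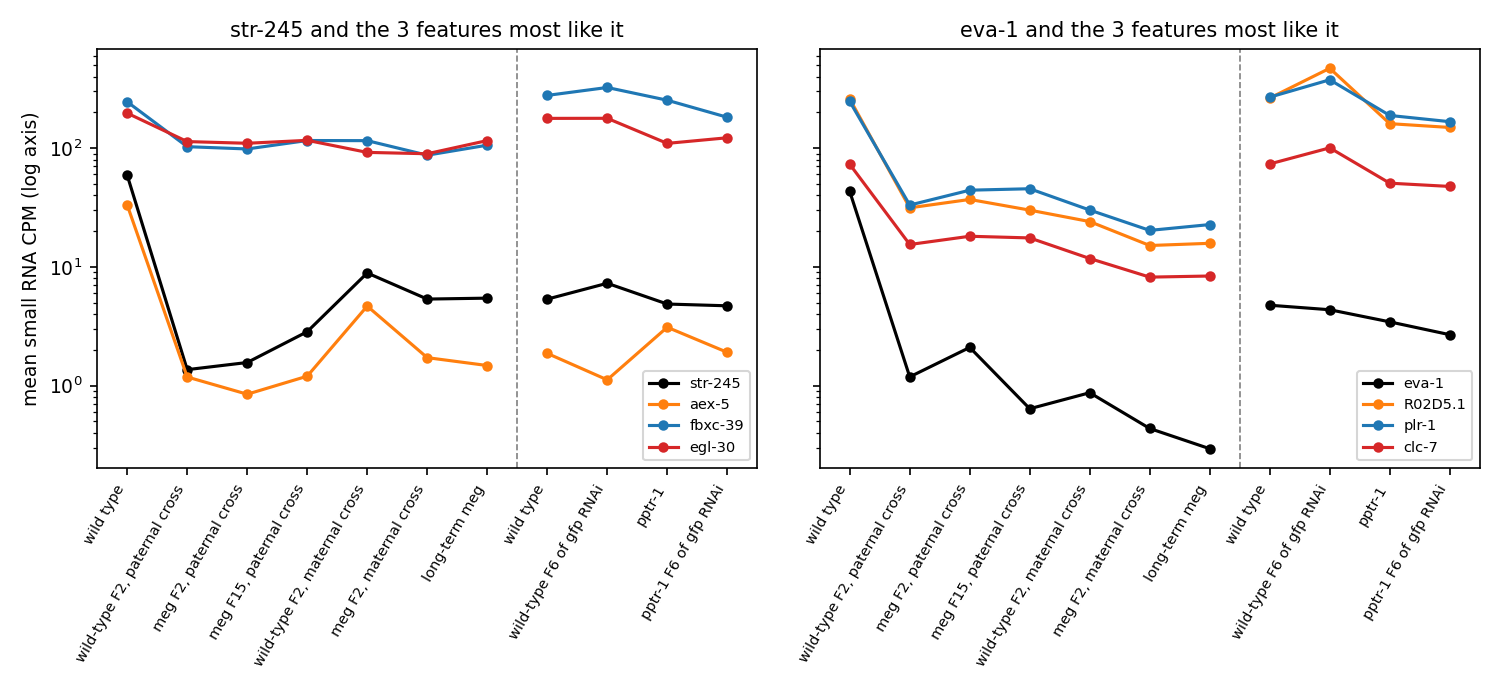
Mean small RNA level (CPM, log axis) per group of str-245 (left) and eva-1 (right), in black, with the 3 features most like each over the 21 column-kit libraries. Column-kit groups are left of the dashed line and phenol groups right of it; lines only join the means. In phenol wild type fbxc-39, egl-30, R02D5.1, plr-1 and clc-7 stand near their column-kit wild-type level, while str-245, aex-5 and eva-1 do not.

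Other str genes rarely carried small RNAs. Of 192 further str genes 11 met the count minimum in the column-kit libraries, and 7 reached a mean of 5 CPM in some group. The highest in column-kit wild type was str-68 with 30.4 ± 7.59 CPM (SD, n = 3), below the mean of str-245, which was chosen by its level there. In phenol wild type str-68 had 35.6 ± 19.5 and str-238 28.5 ± 23.5 CPM, above the 5.35 ± 3.32 of str-245. Over the column-kit libraries other than wild type the medians were 35.6, 23.7 and 1.78 CPM. At str-172 alone did column-kit wild type (6.27 ± 2.51 CPM) lie above all other column-kit libraries (0 to 4.06 CPM), and its phenol wild-type level was 7.13 CPM. In the 6 tested comparisons edgeR called 0 of 11 str genes measured with the column kit and 0 of 14 measured with phenol. Of these 72 tests 5 had an unadjusted edgeR p under 0.05, and DESeq2 called 1. Without the shares over all features, which are not given here, the 5 and the 1 are no result about the family.

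Of 8 genes in the guidance pathways of EVA-1 and netrin, 7 were measured. The netrin receptor gene unc-40, a partner of eva-1, had 207.8 ± 4.27 CPM in column-kit wild type, 31.7 to 182 CPM in the other column-kit libraries and 222 CPM in phenol wild type. Small RNAs at unc-40 were higher in the F15 than in the long-term group (log2 fold change 1.14, SE 0.25, edgeR adjusted p 0.0126) and lower in the maternal than in the paternal mutant F2 (-0.97, SE 0.23, edgeR adjusted p 0.0191). Those are the directions of smp-1. The ligand gene madd-4 was higher in the maternal mutant F2 (3.38, SE 0.94, edgeR adjusted p 0.0447), although its libraries overlapped. No further test of the list passed, so it had 2 genes higher or lower of 7 measured in the comparison of the crosses, 1 in that of F15 with long-term mutants, and 0 in the other 4. Over all features 5.07% were called between the crosses and 5.22% between F15 and long-term mutants. The Robo gene sax-3 had 5.68 ± 1.04 CPM in column-kit wild type, and its ligand gene slt-1 had 1.32 CPM. The median log2 fold change of the list was 0.44 between the crosses, against -0.03 over all features. Of the germline markers glp-1 passed in the same pair of comparisons and in the directions of unc-40 (0.73, SE 0.18, edgeR adjusted p 0.0239, and -0.71, SE 0.17, edgeR adjusted p 0.0161). Of 24 tests of the somatic markers edgeR called 0 and DESeq2 1, and 6 had an unadjusted edgeR p under 0.05. Shares over all features for the DESeq2 call and the unadjusted level are not given here. The 1 and the 6 are thus no result about the markers.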

How the data were processed

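Small RNA libraries were prepared with NEBNext from 32 gonad samples, per the labels' protocols. The values were whole-number counts per feature as deposited by the authors, not normalized. The submitters' processing notes name cutadapt, FastQC, HTSeq, DESeq2 and the build ce11. The aligner, the use of strand and the handling of multiply aligned reads are not given in the sources used here. The members and all gene lists were chosen with earlier results of these data known. Positions came from Ensembl release 115 (WBcel235). Closing tallies of the lists stayed out of library sizes, and features without an annotation entry held 0.0784% of counts.

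The count test was that of edgeR 4.0.16 (R 4.3.3; the data.table package, version 1.17.8, read the lists). A feature was kept if 3 or more libraries of the extraction had 10 or more counts, which left 10230 (column kit) and 10873 (phenol). Scaling was TMM, all groups of an extraction shared a fit without a replicate block, and the two-sided quasi-likelihood F test was adjusted by Benjamini-Hochberg over all features. Each standard error is |log2 fold change| over the root of F. Neighbours within 25 kb were named at a mean of 5 CPM, and the 3 features most like each gene by r of log2 CPM (prior count 2). The test was tested on simulated data. Alternatives were RLE and total-count scaling, other count minimums, DESeq2 1.42.0, a fit of 2 groups, a replicate block and each library left out. No sequence was printed. Python 3.11.15, numpy 2.4.6, pandas 2.3.3, scipy 1.17.1 and matplotlib 3.10.9 were used. Intervals and floors cover counting error only.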

Additional observations from a re-analysis of the deposited data

How the results depend on the processing

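Of 148 alternative values of the 12 tested differences, 137 kept their direction and their side of the threshold. Without a low-count filter the difference between the maternal and paternal mutant F2 passed at str-245 (2.19, edgeR adjusted p 1.83e-05) and at eva-1 (-1.99, edgeR adjusted p 0.0397). At eva-1 it also passed with total-count scaling (-2.26, edgeR adjusted p 0.0453), which moved the median of all features there by -0.27. The cause was not tested. That scaling moved the median by 0.29 in F15 against long-term mutants, by 0.15 in both pptr-1 F6 comparisons and by -0.44 to -0.14 against column-kit wild type. In the tested comparisons whose groups share replicate numbers, these numbers did not pair the libraries (r of same-numbered deviations -0.122 to 0.146). Mutant and wild-type F2 of a cross also share numbers. Their pairing was not checked, and the standard errors of mutant over wild-type F2 take no account of it. In a fit with replicate number as a block, the difference between F15 and the mutant F2 of the paternal cross at str-245 turned to -0.39 (edgeR adjusted p 1), and no call changed. A block could not be fitted for pptr-1 F6 against untreated pptr-1, which share no number. With each library left out in turn, the differences ranged as follows. F15 minus long-term mutants gave -2.61 to -0.58 at str-245 and -0.48 to 1.71 at eva-1. Maternal minus paternal mutant F2 gave -0.30 to 2.69 and -2.31 to -1.46. F15 minus F2 of the paternal cross gave -0.83 to 1.20 and -2.15 to -1.24. Maternal mutant F2 minus long-term mutants gave -2.10 to 0.90 at str-245 and -0.71 (without the second long-term library) to 1.47 at eva-1. For pptr-1 F6 minus wild-type F6 the ranges were -1.27 to -0.37 and -1.12 to -0.52. For pptr-1 F6 minus untreated pptr-1 they were -0.71 to 0.14 and -0.75 to -0.23. With a pptr-1 F6 library left out, the lone remaining one was assumed to vary like the other groups. At str-245 this last value was positive without the second F6 library (0.14) and without the first untreated library (0.07).

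Of 220 alternative values of the differences described without a test, 208 moved by less than the replicate spread and 12 by more. At a minimum of 50 counts eva-1 was not tested in the phenol libraries. Counts of called features moved by over 1.5 times in 37 of 75 alternatives. Without a filter they were 1320, 1250, 546, 358, 1688 and 267, against 534, 519, 93, 21, 841 and 7, in the order of the tested comparisons above. Total-count scaling gave 940 and 797 for the first pair, a fit of 2 groups 218, 337 and 11 for the first 3. DESeq2 gave 188, 84, 1284 and 118 for the last 4. A block gave 13 in place of 21. Single libraries left out took these counts as low as 182, 228, 41, 3, 183 and 2. The count of 47 features apart became 53, and that of 588 became 633, without the shallow library, an alternative chosen after seeing the data. Depth limits eva-1: outside wild type, 1 column-kit library reached 10 counts.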
